A study of Saccharomyces cerevisiae with 6 samples.

Results

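The cytochrome bc1 complex of budding yeast (Saccharomyces cerevisiae) and cytochrome c from CYC1 were followed through a cell-free measurement of ribosome recruitment. The RNAs were chosen by locus: 9 genes of bc1 subunits and CYC1, 10 genes in all, and every RNA of the deposited table that carried one of these locus tags was kept. This gave 14 RNAs from 8 genes, of 6962 RNAs from 4134 genes in the table. QCR2, QCR6, QCR10 and CYC1 had 1 RNA each, QCR7 and QCR8 had 2 each, and RIP1 and QCR9 had 3 each. COR1 (YBL045C) and CYT1 (YOR065W) were looked for and are not analysed here. All 14 RNAs passed the filter on low values (a mean of at least 10 FPKM over the 6 libraries, and an input above 0), as did every RNA of the table.

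The bc1 complex sits in the inner mitochondrial membrane, takes electrons from ubiquinol and passes them to cytochrome c, while moving protons across the membrane. Its redox subunits are cytochrome b, which is made inside mitochondria, and the nuclear-encoded cytochrome c1 (CYT1) and Rieske iron-sulphur protein (RIP1). The core proteins (COR1, QCR2) and the small QCR subunits carry no redox centre and are made in the cytosol, as is cytochrome c. A ribosome on such an mRNA reaches the start codon through the leader, the stretch between the 5′ end and that codon.

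All samples derive from 1 pool of RNAs made with T7 RNA polymerase from a synthetic set of yeast sequences, then capped and incubated in a translation extract of S. cerevisiae, per the labels. No label used here gives the strain of the extract, the time or the temperature. RNA was taken from a sucrose gradient: 3 libraries came from the 80S fraction, which holds RNA bound by joined ribosomal subunits, 2 from a fraction labelled untranslated, and 1 was the input RNA. Both fractions were pulled down through biotin, whereas the label of the input names the phenol and chloroform extraction alone, so a difference from the input can also hold the pulldown. Whether each replicate had its own extract is not stated, so the p-values describe how far these libraries vary, which may be technical variation.

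The values are FPKM, fragments scaled to RNA length and to the mapped reads of a library. Each value is thus relative to the rest of its library, and an RNA can be high because others are low. Read depth is unknown. Members spanned 501 to 19614 FPKM, against a lowest value of 23.9 in the whole table. Across all RNAs, Pearson's r of log2(FPKM + 1) lay between 0.972 and 0.980 among the 80S libraries, was 0.926 between the untranslated libraries, and lay between 0.498 and 0.536 for an 80S library against an untranslated one (genes are not independent replicates).

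The names of the RNAs hold a locus tag and a number, read here as the leader length in nucleotides (nt). Sequences are those of the reference R64 (RefSeq), immediately upstream of the annotated start codon; the build behind the table is not given in the sources used here, and the transcribed RNAs may differ. The base upstream of the inferred 5′ end was a pyrimidine in all 14 leaders, against 96.2% over the pool, and the first base was A in 11 of 14, against 78.3%.

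Leader lengths of 1 gene share the bases next to the start codon and differ at the 5′ end. The start codon sites are shown for RIP1, QCR7 and QCR9, whose leaders differed in their ratio, and for CYC1, QCR2 and QCR10. Capitals mark the start codon, with the last 12 bases of the leader before it and the next 3 coding bases after it, written as DNA from 5′ to 3′.
RIP1: gcaataacaaacATGtta
QCR7: agaaagaacaaaATGcca
QCR9: atacggactaaaATGtct
CYC1: actaaattaataATGact
QCR2: agaagaacgttgATGttg
QCR10: aaactaacctcaATGgcg
The third base before the start codon, a position of the initiation context where A is the usual base in yeast, was A in 12 of 14 leaders and in 62.6% of the pool. QCR2 and QCR10, of 8 genes, were the exceptions, with T. Leaders of 1 gene share this base, so the 14 leaders are not separate observations.

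A step of 11 nt separates both QCR7 leaders, and another of 11 nt the 2 shorter RIP1 leaders. These 5′ ends are shown because the RNAs on either side of the step behaved differently. Capitals mark the bases that only the longer leader has, and the 8 bases in lower case begin the shorter one.
QCR7, 42 nt over 31 nt: AGAATATTAGTaactgtaa
RIP1, 69 nt over 58 nt: AAGAAATTATTgaacataa
Of the 14 leaders 1, the 101 nt leader of QCR9, held an upstream ATG, which 14.2% of pool leaders held. It begins at base 12 from the 5′ end and opens a frame of 5 codons that closes at a TAG, 72 bases before the start codon. Capitals mark its ATG and its stop.
QCR9, 101 nt leader: tatttaATGtcctgtcacggaTAG

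**Figure D1:**
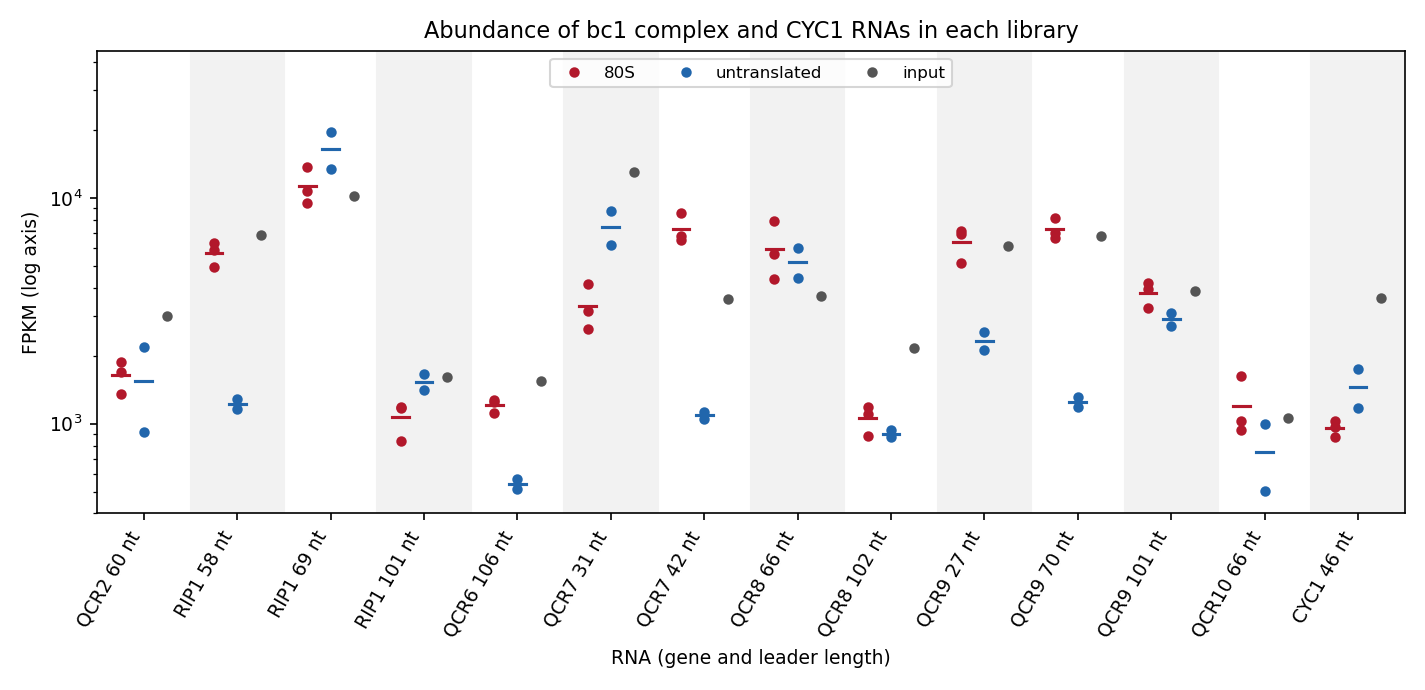
FPKM of each RNA in each library on a log axis, with red points for the 3 80S libraries, blue for the 2 untranslated libraries and grey for the input, and short lines at group means. The 80S points lie far above the untranslated ones for QCR7 (42 nt), QCR9 (70 nt) and RIP1 (58 nt). All 80S points lie below the untranslated ones for QCR7 (31 nt), RIP1 (101 nt) and CYC1.

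The 80S fraction and the fraction labelled untranslated were compared first. Among the 14 RNAs, 5 were higher in 80S, 1 was lower and 8 did not pass (limma, adjusted p under 0.05). The 5 that rose were QCR7 (42 nt, 6.65-fold), QCR9 (70 nt, 5.82-fold), RIP1 (58 nt, 4.65-fold), QCR9 (27 nt, 2.72-fold) and QCR6 (106 nt, 2.24-fold). The 1 that fell was the other QCR7 RNA, with a 31 nt leader, 2.26-fold. Over all 6962 RNAs, 38.6% were higher and 31.8% lower, 70.4% in all, so the share of risers among the members, 35.7%, is near that of the pool and is no result about them. The 1 that fell is 7.14% of the members, but 4 fell (28.6%, near the pool) after median ratio scaling or without untranslated replicate 1, and 2 without 80S replicate 2, so this share rests on the scaling and on single libraries. The median log2 difference was 0.30 over the 14 and 0.18 over all RNAs. After median ratio scaling of the libraries the median of all RNAs was 0.03, so the sign of small differences depends on the scaling. The 80S and untranslated libraries did not overlap for 9 of the 14 RNAs, against 79.5% of all RNAs. The smallest two-sided p of an exact permutation test for 3 libraries against 2 is 0.1, so the calls rest on limma's variance shared across RNAs.

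**Figure D2:**
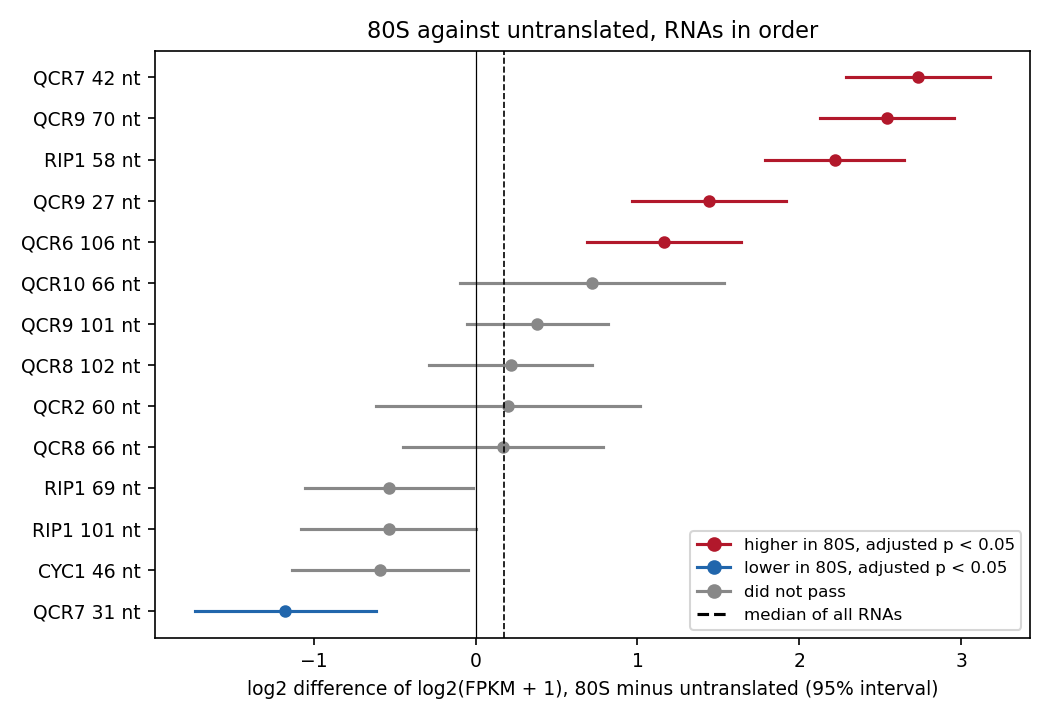
Log2 difference of each RNA, 80S minus untranslated, with its 95% interval from limma, in falling order. QCR7 stands at both ends, at 2.73 with a 42 nt leader and at -1.17 with a 31 nt leader, and the dashed line marks the median of all RNAs at 0.18.

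The order of these differences ran from QCR7 (42 nt) over QCR9 (70 nt), RIP1 (58 nt), QCR9 (27 nt), QCR6, QCR10, QCR9 (101 nt), QCR8 (102 nt), QCR2, QCR8 (66 nt), RIP1 (69 nt), RIP1 (101 nt) and CYC1 to QCR7 (31 nt). The 95% interval of each overlapped that of its next neighbour at every step. The top RNA stood at percentile 98.2 of the pool and the bottom one at percentile 20.5.

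Of the core proteins, which face the mitochondrial matrix, QCR2 (YPR191W) was measured. Its 60 nt leader spans bases 919321 to 919380 of chromosome XVI, plus strand. QCR2 had 1874, 1359 and 1698 FPKM in 80S replicates 1 to 3, 2190 and 918 FPKM in untranslated replicates 1 and 2, and 3005 FPKM in the input. The untranslated libraries lay on either side of all 3 80S libraries. The log2 difference of 80S against untranslated was 0.20 (95% interval -0.61 to 1.01, limma, adjusted p = 0.628). In limma it was 0.83 (adjusted p = 0.0115) without untranslated replicate 1 and -0.43 (adjusted p = 0.145) without untranslated replicate 2, so 1 library decided its sign.

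RIP1 (YEL024W) encodes the Rieske protein, whose iron-sulphur cluster takes the first electron from ubiquinol. Its leaders of 58, 69 and 101 nt end at base 107259 of chromosome V, plus strand, and begin at 107202, 107191 and 107159. With the 58 nt leader, RIP1 had 6320, 4957 and 5859 FPKM in 80S, 1158 and 1286 FPKM in untranslated RNA and 6892 FPKM in the input. The 80S libraries lay close to the input, and both untranslated libraries lay far below. The log2 difference of 80S against untranslated was 2.22 (SE 0.19, limma, adjusted p = 2.752e-05). The 69 nt RNA, the most abundant of the 14 in each fraction, had 10805, 13698 and 9508 FPKM in 80S, 13419 and 19614 FPKM in untranslated RNA and 10224 FPKM in the input. Its fractions overlapped, and the log2 difference was -0.53 (SE 0.23, limma, adjusted p = 0.0626).

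With the 101 nt leader, RIP1 had 1178, 1185 and 842 FPKM in 80S, 1410 and 1660 FPKM in untranslated RNA and 1608 FPKM in the input. Here all 80S libraries lay below both untranslated ones, but the log2 difference of -0.54 (SE 0.24, limma, adjusted p = 0.0704) did not pass. Neither longer RIP1 RNA passed, and both sat close to the threshold. In limma after median ratio scaling, the 69 nt RNA stood at -0.68 (adjusted p = 0.0316) and the 101 nt RNA at -0.68 (adjusted p = 0.0304). The 69 nt RNA also passed in limma without untranslated replicate 1 (-0.81, adjusted p = 0.00566) or 80S replicate 2 (-0.68, adjusted p = 0.0370), and the 101 nt RNA without untranslated replicate 1 (-0.65, adjusted p = 0.0495). Without untranslated replicate 2 they stood at -0.26 (limma, adjusted p = 0.319) and -0.42 (adjusted p = 0.192), and without 80S replicate 3 at -0.42 (adjusted p = 0.185) and -0.37 (adjusted p = 0.246).

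Among the small subunits, QCR6 (YFR033C) is the acidic protein at the cytochrome c1 side of the complex. Its 106 nt leader, the longest of the 14, spans bases 224770 to 224875 of chromosome VI, minus strand. QCR6 had 1246, 1117 and 1271 FPKM in 80S, 570 and 512 FPKM in untranslated RNA and 1540 FPKM in the input. The 80S libraries were uniform and well above both untranslated ones, and the log2 difference reached 1.16 (SE 0.21, limma, adjusted p = 0.00122). It was the 1 leader of 4 with at least 100 nt that passed as higher; over the pool, 33.7% of 403 such leaders did.

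QCR7 (YDR529C), a small subunit next to cytochrome b, gave the widest split. Its leaders of 31 and 42 nt begin at 1496579 and 1496590 and end at 1496549 of chromosome IV, minus strand. The 42 nt RNA had 6512, 6772 and 8578 FPKM in 80S, 1129 and 1047 FPKM in untranslated RNA and 3568 FPKM in the input. All 80S libraries exceeded the input and both untranslated libraries fell short of it. The log2 difference of 80S against untranslated was 2.73 (SE 0.19, limma, adjusted p = 1.479e-05). The 31 nt RNA had 3158, 2637 and 4152 FPKM in 80S, 8729 and 6194 FPKM in untranslated RNA and 13006 FPKM in the input, the highest input of the 14. Its 80S libraries lay below both untranslated libraries, and all 5 lay below the input, with a log2 difference of 80S against untranslated of -1.17 (SE 0.24, limma, adjusted p = 0.00271).

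QCR8 (YJL166W), a small subunit that also contacts cytochrome b, did not pass between the fractions at either leader. Both leaders end at base 106433 of chromosome X, plus strand, and begin at 106368 (66 nt) and 106332 (102 nt). The 66 nt RNA had 7887, 4370 and 5628 FPKM in 80S, 4409 and 5994 FPKM in untranslated RNA and 3670 FPKM in the input. The 102 nt RNA had 1105, 886 and 1185 FPKM in 80S, 870 and 939 FPKM in untranslated RNA and 2174 FPKM in the input. The fractions overlapped for both, with log2 differences of 0.17 (95% interval -0.45 to 0.79) and 0.22 (95% interval -0.29 to 0.72), for adjusted p = 0.584 and 0.396 in limma. In limma the first was -0.05 without 80S replicate 1 or without untranslated replicate 1 (adjusted p = 0.872 and 0.880).

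QCR9 (YGR183C), a small subunit near the Rieske protein and cytochrome c1, has a coding sequence in 2 parts, and its leaders end next to the first of them. They end at base 859477 of chromosome VII, minus strand, and begin at 859503 (27 nt), 859546 (70 nt) and 859577 (101 nt). The 27 nt RNA had 7137, 5132 and 6921 FPKM in 80S, 2546 and 2126 FPKM in untranslated RNA and 6159 FPKM in the input. The 70 nt RNA had 7012, 6667 and 8178 FPKM in 80S, 1182 and 1313 FPKM in untranslated RNA and 6795 FPKM in the input. In both, the 80S libraries lay around the input and far above the untranslated ones, and the log2 differences were 1.44 (SE 0.21, limma, adjusted p = 0.000380) and 2.54 (SE 0.18, limma, adjusted p = 1.478e-05).

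The 101 nt RNA of QCR9, which carries the upstream ATG, had 3955, 3268 and 4212 FPKM in 80S, 2721 and 3107 FPKM in untranslated RNA and 3858 FPKM in the input. The lowest 80S library still lay above the higher untranslated one. The log2 difference of 0.38 (95% interval -0.06 to 0.82, limma, adjusted p = 0.103) did not pass.

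QCR10 (YHR001W-A), a small subunit whose coding sequence also lies in 2 parts, has a 66 nt leader spanning bases 107760 to 107825 of chromosome VIII, plus strand. It had 1032, 1627 and 941 FPKM in 80S, 501 and 999 FPKM in untranslated RNA and 1062 FPKM in the input. The fractions overlapped, and the untranslated libraries lay far apart. The log2 difference was 0.72 (95% interval -0.10 to 1.54, limma, adjusted p = 0.101). In limma it was 1.22 (adjusted p = 0.00416) without untranslated replicate 2 and 0.22 (adjusted p = 0.545) without untranslated replicate 1.

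CYC1 (YJR048W) encodes the main form of cytochrome c, the soluble carrier that takes electrons from cytochrome c1 to cytochrome oxidase. Its 46 nt leader spans bases 526289 to 526334 of chromosome X, plus strand. CYC1 had 1030, 963 and 871 FPKM in 80S, 1169 and 1753 FPKM in untranslated RNA and 3612 FPKM in the input. All 80S libraries lay below both untranslated ones, and all 5 lay below the input. The log2 difference of 80S against untranslated, -0.59 (SE 0.24, limma, adjusted p = 0.0528), missed the threshold. It passed in limma after median ratio scaling (-0.73, adjusted p = 0.0241), with no mean-variance trend (-0.59, adjusted p = 0.0471) and without untranslated replicate 1 (-0.88, adjusted p = 0.00635), and stood at -0.30 (adjusted p = 0.303) without untranslated replicate 2.

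RNAs of 1 gene that differ in leader length were then compared directly. For each of 3811 such pairs in the table, the log2 difference of the longer minus the shorter leader was formed within each library, and its change between 80S and untranslated RNA was tested with limma. Of the 8 pairs of bc1 genes 6 passed at an adjusted p under 0.05, against 68.6% of all pairs, a similar share. QCR7 and RIP1 each split at a step of 11 nt, in opposite directions: the longer leader had the higher 80S to untranslated ratio in QCR7 and the lower in RIP1. In QCR9 the middle length had the highest ratio. For QCR8 no difference was detected. Leaving out any 1 fraction library kept all 6 pairs past the threshold. How reads shared by leaders of 1 gene were assigned is not given in the sources used here, and its part in these differences was not tested.

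**Figure D3:**
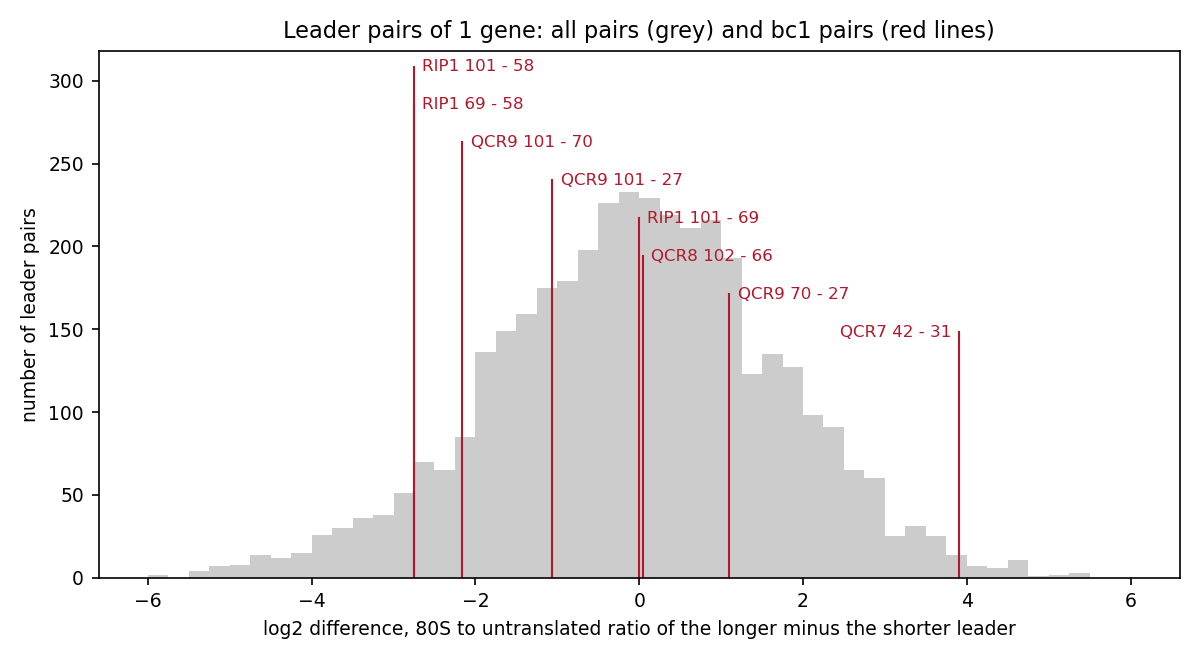
Histogram of the log2 difference in 80S to untranslated ratio, longer minus shorter leader, over all 3811 pairs in grey, with red lines at the 8 bc1 pairs (line height has no meaning). QCR7 lies far to the right at 3.91, RIP1 against its 58 nt leader far to the left near -2.75, and RIP1 101 nt against 69 nt and QCR8 lie near 0.

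For QCR7, the log2 difference between the 42 and the 31 nt leader was 3.91 (SE 0.21, limma, adjusted p = 6.585e-06), a 15.0-fold higher ratio for the longer leader. By size, it ranked 108 of all 3811 pairs and 3 of the 201 pairs that were 11 nt apart. The median size over those 201 pairs was 1.00 on the log2 scale, and 66.2% of them passed. The added bases shown above hold no ATG, and the folding energy of the leader alone was -2.60 kcal/mol with and without them. The cause of the split was not tested.

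For RIP1, the 69 nt leader stood 6.74-fold below the 58 nt leader in this ratio, at -2.75 on the log2 scale (SE 0.27, limma, adjusted p = 7.282e-05), which ranked 17 of the 201 pairs 11 nt apart. The 101 nt leader stood 6.75-fold below the 58 nt leader, also at -2.75 (SE 0.26, limma, adjusted p = 5.984e-05). Between the 101 and the 69 nt leader the difference was -0.0020 (95% interval -0.49 to 0.48, limma, adjusted p = 0.995). The ratio thus differed across the 11 nt step, and no difference was detected across the next 32 nt. Folding energies were -2.10, -4.90 and -13.0 kcal/mol at 58, 69 and 101 nt.

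For QCR9, the 70 nt leader exceeded the 27 nt leader in this ratio by 2.14-fold, or 1.10 on the log2 scale (SE 0.22, limma, adjusted p = 0.00277). The 101 nt leader stood 4.47-fold below the 70 nt leader, at -2.16 (SE 0.18, limma, adjusted p = 3.735e-05). It also stood 2.09-fold below the 27 nt leader, at -1.06 (SE 0.21, limma, adjusted p = 0.00260). The ratio therefore did not follow length: 70 nt stood above 27 nt, and 27 nt above 101 nt. Folding energies were -0.400, -11.7 and -17.0 kcal/mol at 27, 70 and 101 nt. The cause of the differences between QCR9 leaders was not tested. For QCR8, the 102 nt leader differed from the 66 nt leader by 0.046 on the log2 scale (95% interval -0.55 to 0.64, limma, adjusted p = 0.881).

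**Figure D4:**
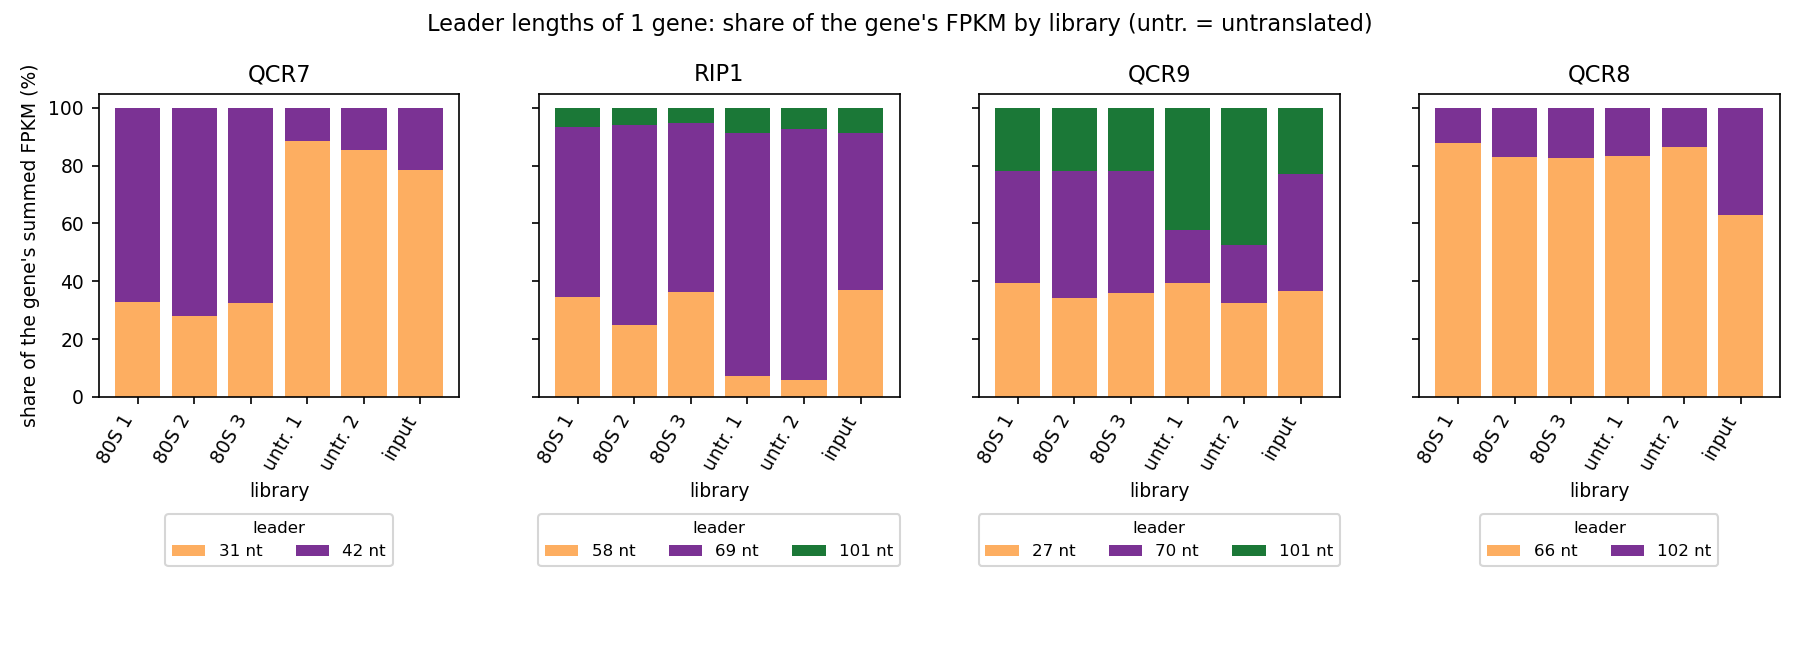
Share of each gene's summed FPKM held by each leader length, in percent, for every library, with the 80S libraries on the left, the untranslated libraries in the middle and the input on the right. The 42 nt leader of QCR7 takes most of the gene's FPKM in 80S and little in untranslated RNA, and the 58 nt leader of RIP1 takes 5.70% and 7.24% in the untranslated libraries.

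The share of each leader length within its gene differed between fractions. The 42 nt leader held 67.3%, 72.0% and 67.4% of QCR7's summed FPKM in 80S, 11.5% and 14.5% in untranslated RNA and 21.5% in the input. The 58 nt leader held 34.5%, 25.0% and 36.1% of RIP1's sum in 80S, 7.24% and 5.70% in untranslated RNA and 36.8% in the input. For RIP1 the 80S libraries lay nearer the input and the untranslated libraries stood apart, whereas for QCR7 both fractions left the input, on opposite sides. The 101 nt leader of QCR9 held 21.8%, 21.7% and 21.8% of the gene's sum in 80S, 42.2% and 47.5% in untranslated RNA and 22.9% in the input. The 102 nt leader of QCR8 held 12.3%, 16.9% and 17.4% in 80S, 16.5% and 13.5% in untranslated RNA and 37.2% in the input, so for QCR8 both fractions lay on the same side of the input.

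The sums over leaders hid some of these contrasts. QCR7 summed to 9671, 9409 and 12730 FPKM in 80S and to 9858 and 7240 FPKM in untranslated RNA, which overlap although its RNAs moved in opposite directions. RIP1 summed to 18302, 19841 and 16209 FPKM in 80S and to 15987 and 22561 FPKM in untranslated RNA, which also overlap. QCR9 kept its contrast, with 18103, 15066 and 19312 FPKM in 80S and 6449 and 6546 FPKM in untranslated RNA.

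The 80S fraction was then set against the starting pool. The 42 nt RNA of QCR7 rose 2.03-fold in 80S, and 3 of the 14 RNAs fell: QCR7 with its 31 nt leader (3.99-fold), CYC1 (3.79-fold) and QCR8 with its 102 nt leader (2.07-fold). The other 10 did not pass in limma. Over all RNAs 20.1% were higher and 33.2% lower, 53.3% in all. The single input library has no replicate and was assumed to vary like the fractions. Of all calls 37.7% were higher in 80S, and 48.9% after median ratio scaling.

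The log2 difference of 80S against the input was 1.02 (SE 0.24, limma, adjusted p = 0.00872) for QCR7 with 42 nt and -1.997 (SE 0.31, limma, adjusted p = 0.00128) with 31 nt. CYC1 stood at -1.92 (SE 0.30, limma, adjusted p = 0.00132), or -1.67 relative to the median of all RNAs, which was -0.25. QCR8 with 102 nt stood at -1.05 (SE 0.28, limma, adjusted p = 0.0133). QCR2 stood at -0.88 (95% interval -1.91 to 0.14, limma, adjusted p = 0.127), and passed in limma without untranslated replicate 1 or 2 (adjusted p = 0.00903 and 0.00806), with the same difference. QCR8 with 66 nt stood at 0.66 (adjusted p = 0.133 in limma), and at 0.90 (adjusted p = 0.0452) after median ratio scaling. All 3 QCR9 RNAs stood within 0.1 of 0 on the log2 scale, at 0.04, 0.09 and -0.03 for 27, 70 and 101 nt.

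The untranslated fraction was set against the input as well; all 3 comparisons share libraries, so their values are given side by side. In limma 0 of the 14 RNAs rose and 7 fell, against 17.4% and 34.4% of all RNAs, 51.8% in all; at an unadjusted p under 0.05 these counts were 0 and 8. The 0 became 1 (RIP1, 69 nt) after median ratio scaling or without untranslated replicate 1. Higher RNAs made up 33.5% of all calls in the pool, and 52.8% after median ratio scaling. The 7 that fell were RIP1 with 58 nt (5.64-fold), QCR9 with 70 nt (5.45-fold), QCR7 with 42 nt (3.28-fold), QCR6 (2.85-fold), QCR9 with 27 nt (2.65-fold), CYC1 (2.52-fold) and QCR8 with 102 nt (2.40-fold).

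**Figure D5:**
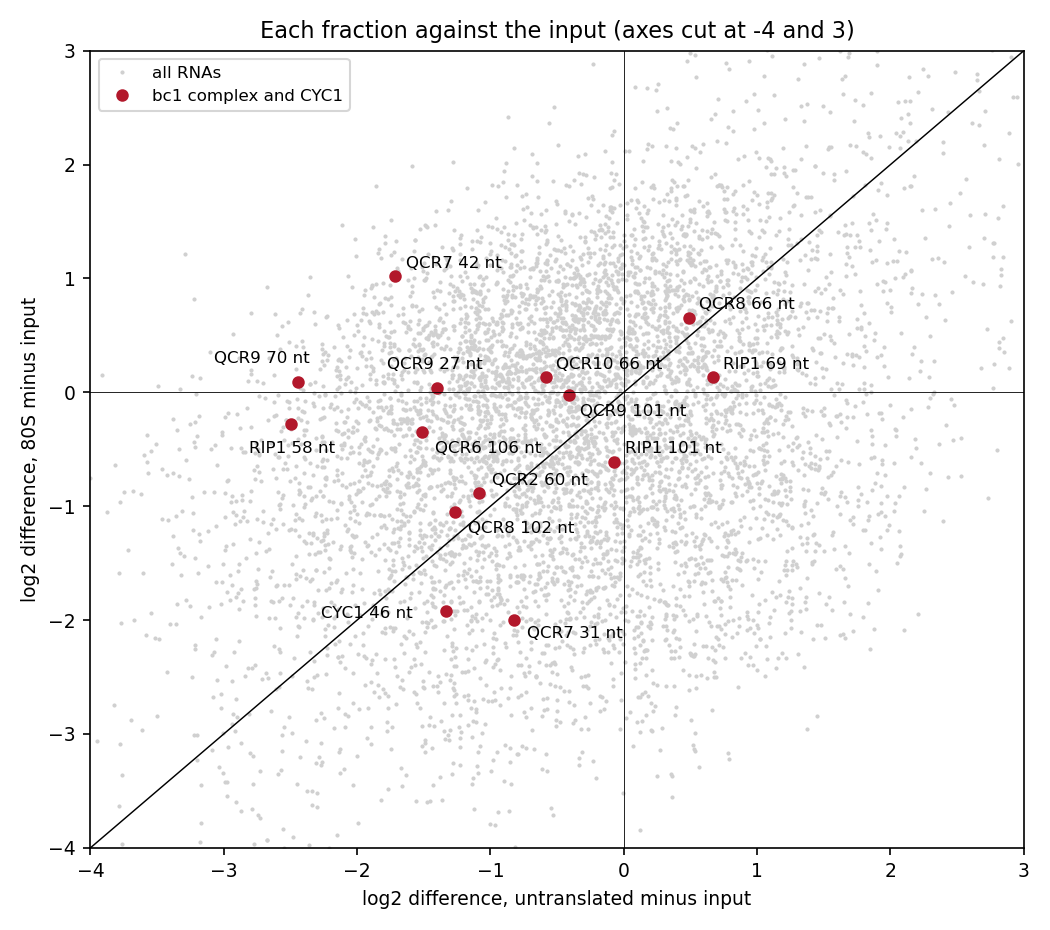
Log2 difference of 80S minus input (vertical) against untranslated minus input (horizontal) for all RNAs in grey and the 14 RNAs in red; 165 grey RNAs lie outside the axes, and both axes share the input library. QCR7 with 42 nt lies at the upper left, RIP1 with 58 nt and QCR9 with 70 nt lie far left near 0 on the vertical axis, and CYC1 and QCR7 with 31 nt lie at the bottom.

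RIP1 with 58 nt and QCR9 with 70 nt stood at -2.50 (SE 0.25, limma, adjusted p = 0.000427) and -2.45 (SE 0.24, limma, adjusted p = 0.000424) in untranslated RNA against the input, and at -0.28 and 0.09 in 80S against the input. Their contrast between the fractions thus lay mostly on the untranslated side. QCR7 with 42 nt stood at -1.71 (SE 0.26, limma, adjusted p = 0.00147), with a rise in 80S beside it. CYC1 stood at -1.33 (SE 0.32, limma, adjusted p = 0.00931) and QCR8 with 102 nt at -1.27 (SE 0.29, limma, adjusted p = 0.00847), and both were lower than the input in each fraction.

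RIP1 with 69 nt stood at 0.67 (limma, adjusted p = 0.0967) in untranslated RNA against the input, and at 1.05 (adjusted p = 0.0256) after median ratio scaling and 0.94 (adjusted p = 0.00974) without untranslated replicate 1, but 0.39 (adjusted p = 0.253) without untranslated replicate 2. QCR7 with 31 nt stood at -0.82 (limma, adjusted p = 0.0639), at -1.07 (adjusted p = 0.00833) without untranslated replicate 1 and at -0.58 (adjusted p = 0.132) without untranslated replicate 2. QCR2 stood at -1.08 (limma, adjusted p = 0.0863), at -1.71 (adjusted p = 0.000456) without untranslated replicate 1 and at -0.46 (adjusted p = 0.229) without untranslated replicate 2. QCR10 stood at -0.59 (limma, adjusted p = 0.328), at -1.08 (adjusted p = 0.0337) without untranslated replicate 2 and at -0.09 (adjusted p = 0.855) without untranslated replicate 1. For each of these 4 RNAs 1 untranslated library thus decided the call.

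The leaders of the 14 RNAs were 27 to 106 nt long, against a pool median of 45 nt. Their GC content ran from 26.1% to 36.7% with a median of 31.4%, against a pool median of 34.7%, and 12 of the 14 lay below it. Leaders of the same gene share bases, so these are not 14 separate observations. CYC1, whose 46 nt leader had a folding energy of 0 kcal/mol, stood at -1.92 in 80S and -1.33 in untranslated RNA against the input. QCR9 with 70 nt, at -11.7 kcal/mol, stood at 0.09 in 80S and -2.45 in untranslated RNA against the input. These are single leaders and no relation was tested.

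Other genes of the pathway were taken as 6 lists, 42 of whose 51 genes had an RNA, 69 RNAs in all. In 80S against untranslated RNA, 25 of these rose, 18 fell and 26 did not pass in limma, with a median log2 difference of 0.08 against 0.18 over all RNAs. The shares, 36.2% higher and 26.1% lower, are near the 38.6% and 31.8% of all RNAs, so the counts are no result about these lists as a whole.

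Among factors for cytochrome b expression and bc1 assembly, 3 of 16 RNAs rose (18.8%, against 38.6% of all RNAs), 6 fell (37.5%, against 31.8%) and 7 did not pass, with a median of -0.43 against 0.18. MZM1, a chaperone of the Rieske protein, stood at -2.83 with an 88 nt leader and at 1.89 with a 101 nt leader. BCS1, the ATPase that moves the Rieske protein across the inner membrane, stood at -2.50 (21 nt), and CBT1, which acts on the mRNA of cytochrome b, at 1.73 (21 nt). All 4 passed. Of the genes listed for haem attachment to cytochromes c and c1, 2 of 5 RNAs rose and 2 fell, 40.0% each way and near the shares of all RNAs, with a median of 0.01. CYT2, the haem lyase of cytochrome c1, stood at 1.19 (99 nt), and CYC2 at -1.47 (75 nt), -1.33 (23 nt) and 0.96 (38 nt). The last of these was no longer called without 80S replicate 1 (1.01, limma, adjusted p = 0.0507), 80S replicate 3 (0.85, adjusted p = 0.0662) or untranslated replicate 2 (0.37, adjusted p = 0.136), which left 1 riser.

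Of the peptidases that remove presequences, 3 of 8 RNAs rose (37.5%, against 38.6% of all RNAs), 1 fell (12.5%, against 31.8%) and 4 did not pass, with a median of 0.09 against 0.18. MAS1 and MAS2, the subunits of the matrix processing peptidase, stood at 1.11 (28 nt) and 2.43 (38 nt). SOM1, of the inner membrane peptidase, stood at -2.93 (39 nt) and -0.54 (52 nt, limma, adjusted p = 0.262). OCT1, which trims presequences further, stood at -0.77 (52 nt, limma, adjusted p = 0.133). Leaving out 1 library gave -1.52 to -0.021 for OCT1, with -1.52 without untranslated replicate 2, where more RNAs of the list fell.

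For the synthesis of ubiquinone, the electron donor of the complex in its reduced form, 10 of 17 RNAs rose (58.8%, against 38.6% of all RNAs), 2 fell (11.8%, against 31.8%) and 5 did not pass, with a median of 0.82 against 0.18. COQ2, which attaches the side chain, stood at 3.07 (46 nt) and 1.02 (24 nt, limma, adjusted p = 0.0213), and COQ6, a hydroxylase, at 2.07 (93 nt). COQ8 and COQ9, both needed for the pathway, stood at -1.25 and -2.63 with leaders of 52 nt each. Their shorter leaders did not pass, at 0.34 (COQ8, 25 nt, limma, adjusted p = 0.0766) and 0.08 (COQ9, 27 nt, limma, adjusted p = 0.705). With 1 library left out, some fits gave fewer risers and some gave more fallers, so both shares depend on single libraries. Among donors and acceptors of electrons, 7 of 15 RNAs rose (46.7%, against 38.6%), 5 fell (33.3%, against 31.8%) and 3 did not pass, with a median of 0.52. SDH2, the iron-sulphur subunit of succinate dehydrogenase, stood at 2.51 (59 nt), 2.39 (44 nt) and 0.52 (77 nt, limma, adjusted p = 0.111). GUT2, the mitochondrial glycerol-3-phosphate dehydrogenase, stood at -2.56 (71 nt), -0.62 (44 nt, limma, adjusted p = 0.152) and 1.10 (33 nt, limma, adjusted p = 0.0484). Its 33 nt RNA thus passed as higher and its 71 nt RNA as lower. CYB2, the lactate dehydrogenase that feeds cytochrome c, stood at -3.44 (43 nt).

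Of the transcription regulators of respiratory genes, 0 of 8 RNAs rose (against 38.6% of all RNAs), 2 fell (25.0%, against 31.8%) and 6 did not pass in limma, with a median of -0.24 against 0.18. These 8 RNAs came from 4 genes, and leaders of 1 gene share bases, so they are not separate observations. At an unadjusted p under 0.05, 0 were higher and 4 lower. With adjustment, 4 passed as lower after median ratio scaling and without untranslated replicate 2. ROX1, the repressor of hypoxic genes, stood at -1.79 (98 nt) and -1.53 (72 nt), and both passed. Its leaders of 56 and 30 nt stood at -0.73 and 0.07 (limma, adjusted p = 0.0591 and 0.808). HAP5 and HAP3, subunits of the CCAAT-binding complex, stood at 0.45 (45 nt, limma, adjusted p = 0.0809) and 0.12 (41 nt, limma, adjusted p = 0.606), the second at -0.03 after median ratio scaling. HAP3 with 24 nt stood at -0.52 (limma, adjusted p = 0.0543).

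The RNAs most like 3 of the bc1 and CYC1 RNAs were found by the Euclidean distance between log2 ratios to the input in the 5 fraction libraries. Nearest to QCR7 with 42 nt were YKL107W (34 nt, distance 0.225), PSG1 (52 nt, 0.274) and VPS62 (20 nt, 0.332). For QCR7 with 31 nt they were TIR3 (32 nt, 0.115), FMP25 (66 nt, 0.236) and AAP1 (78 nt, 0.302). FMP25 was also in the list for cytochrome b expression and bc1 assembly. There it stood at -1.07 in 80S against untranslated RNA (66 nt, limma, adjusted p = 0.00569), and its leaders of 42 and 27 nt did not pass. For CYC1 the nearest were RPT3 (93 nt, 0.410), STF1 (65 nt, 0.413) and SSF1 (34 nt, 0.488). All ratios share the single input library.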

How the data were processed

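The deposited values are FPKM per RNA and library, per the file headers; the submitters' processing notes name cutadapt and STAR, without versions. The program behind the FPKM, the genome build and the handling of reads shared between leaders were not stated. Depth is unknown. Groups follow the labels.

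limma 3.58.1 (R 4.3.3) was fitted to log2(FPKM + 1) of all 6962 RNAs in 6 libraries, with group means and a mean-variance trend; p-values were adjusted by Benjamini-Hochberg at 0.05. Fold changes on this scale understate those of low RNAs. A filter (mean FPKM of at least 10, input above 0) removed 0 RNAs. For the 3811 leader pairs the trend used the mean level of both RNAs. The code of the fit was tried on simulated data, in which few RNAs changed and noise was independent between libraries. Here 70.4% of RNAs passed for 80S against untranslated, so that trial does not bear on the calls reported. Folding energies came from ViennaRNA 2.7.2, for the leader alone. Python 3.11.15, numpy 2.4.6, pandas 2.3.3, biopython 1.88 and matplotlib 3.10.9 were used.

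The members and gene lists were chosen with earlier results of these data known. All member RNAs are named, as are the 2 highest and 2 lowest RNAs of each list and the 3 RNAs most like QCR7 (both leaders) and CYC1. For genes named from a list, their other leaders are given too. Alternatives were other pseudocounts, filters and scaling, no trend, a replicate block, fits of only the groups compared and leaving out each library.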

Additional observations from a re-analysis of the deposited data

How the results depend on the processing

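Of 50 values of single RNAs and pairs of the bc1 genes and CYC1, under 654 combinations of value and alternative, 610 kept their direction and side of the threshold, 22 newly passed, 22 changed sign and 0 calls were lost. Some of these combinations could not differ. The filter removed 0 RNAs, so the fit without it equals the fit reported. Leaving out an 80S library does not move a difference between untranslated RNA and the input. The 610 therefore overstate how stable the values are. The RNAs lower in 80S than in untranslated RNA, 1 in the fit reported, numbered 4 after median ratio scaling, 2 with no mean-variance trend and 2 with the replicate block, and 1 to 4 when 1 library was left out. RNAs higher in 80S than in the input, 1 in the fit reported, numbered 2 after median ratio scaling, and those higher in untranslated RNA than in the input, 0 in the fit reported, numbered 1 after that scaling and 0 to 1 when 1 library was left out. With the longest and shortest leader of each gene alone, 1367 pairs passed, because fewer pairs were tested. Over all RNAs, leaving out 1 library gave 4360 to 4990 calls for 80S against untranslated, 3130 to 4465 for 80S against input, 3090 to 4175 for untranslated against input, and 2296 to 2691 pairs.

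Some values that had not passed changed sign. In 80S against untranslated RNA, leaving out 1 library gave -0.43 to 0.83 for QCR2, -0.052 to 0.39 for QCR8 (66 nt) and -0.026 to 0.26 for HAP3 (41 nt, -0.030 after median ratio scaling). In 80S against the input it gave -0.048 to 0.19 for QCR9 (27 nt), -0.11 to 0.29 for QCR10, -0.10 to 0.081 for QCR9 (101 nt, 0.22 after median ratio scaling) and -0.013 to 0.25 for RIP1 (69 nt). In untranslated RNA against the input it gave -0.19 to 0.046 for RIP1 (101 nt, 0.32 after median ratio scaling). The pair of RIP1 leaders of 101 and 69 nt stood at 0.0016 with a pseudocount of 10 and at -0.16 to 0.15 without 1 library, and that of QCR8 at -0.12 to 0.23. The cause of these shifts was not tested.

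Replicate numbers are shared by 80S and untranslated libraries for 2 pairs, and no label says that they pair; deviations of same-numbered libraries correlated at 0.086 and 0.530. With the replicate block, QCR9 (70 nt) stood at -0.011 and QCR10 at -0.13 in 80S against the input, and the pairs at 0.042 (RIP1, 101 and 69 nt) and -0.061 (QCR8). QCR10 and RIP1 (69 nt) newly passed in 80S against untranslated RNA (0.87 and -0.42), and OCT1 there (-0.92) and QCR10 in untranslated RNA against the input (-0.998) also passed. The single input library and the 2 untranslated libraries limit the precision.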
